A study of Mus musculus with 43 samples.

Results

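The interferon response genes are genes that cells switch on when an interferon binds its receptor. They were taken as 44 mouse gene symbols, found through their NCBI Gene IDs among the 24475 genes of the count table: 31 genes typical of type I interferon, 12 genes typical of interferon-gamma, and Ifng, which encodes interferon-gamma itself. All 44 passed the filter on low counts, as did 15979 genes in all. The 2 classes overlap in biology, since many of these genes answer to either interferon, and the class names here follow the list.

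Type I interferons (the alpha and beta interferons) bind a receptor built of Ifnar1 and Ifnar2 and act through a complex that includes Stat2 and Irf9 and binds a DNA motif called the interferon-stimulated response element (ISRE). Interferon-gamma, made mainly by natural killer (NK) and T cells, binds a receptor built of Ifngr1 and Ifngr2 and leads to binding at another motif, the gamma-activated site (GAS). In the lung both arms are known for defence against viruses and intracellular microbes. House dust mite, a common allergen, is used in mice to raise the type 2 airway inflammation driven by IL-4, IL-13 and IL-33.

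RNA was sequenced from whole lung of 43 female mice on a hybrid 129S6/C57BL/6 background. Their age is given as 8 to 12 weeks, which cannot be the age at harvest after 19 weeks of dosing. Groups dosed for different lengths of time may therefore also differ in age at harvest. For the antibody work, the mouse genes for IL-4, IL-33 and the outer part of IL-4Rα carried the matching human sequence, and the labels do not say whether every mouse here had these alleles. Mice received intranasal house dust mite extract (HDM), 3 doses a week, for 11 or 19 weeks by the labels, while the series' design text speaks of other exposure lengths as well. The groups were HDM for 19 weeks with both antibodies (itepekimab against IL-33 and dupilumab against IL-4Rα, the combination, n = 5), with anti-IL-33 plus isotype antibody (n = 6), with anti-IL-4Rα plus isotype antibody (n = 7), with isotype antibody only (n = 7), HDM for 19 weeks with no antibody (n = 7), HDM for 11 weeks with no antibody (n = 6), and saline (n = 5). The start of antibody dosing and the length of saline dosing are not given for these mice. Mice are named by the numbers in the labels, and nothing states that they were other than separate animals.

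Library totals ran from 11.9 to 26.7 M counts (M standing for 1e+06; levels are in counts per M, CPM, scaled by TMM). Lung markers were abundant in all 43 libraries: the type II alveolar gene Sftpc stood at 6100 to 20500 CPM and the type I alveolar gene Ager at 370 to 2070 CPM. Libraries differed in how their values leaned on base composition, measured as a GC slope (the change in a library's log2 values, relative to the other libraries, per 10 percentage points of transcript GC). The slope averaged -0.59 ± 0.17 in saline libraries (SD, n = 5), the lowest of the 7 groups, and 9 libraries exceeded 0.75: 3 of the combination, 2 of anti-IL-33, 3 of anti-IL-4Rα and 1 of HDM for 19 weeks. These were bulk samples of a whole organ, in which fewer cells of a type and less RNA per cell cannot be told apart.

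Promoter sequence was at hand for 34 of the 44 genes (RefSeq, build GRCm38.p6), over 250 bases before to 50 bases after each start. The core of the ISRE, searched as the letters GAAA, 2 bases of any kind and GAAA, was found on either strand in 11 of 22 type I promoters and in 6 of 11 gamma-type promoters, against 3.99% of all 27025 genes with a promoter. The letters TTCNNNGAA of the GAS, which read the same on both strands, were found in 4 of 22 type I and 5 of 11 gamma-type promoters and in that of Ifng, against 9.55% of all genes. The 2 patterns may overlap each other, and a match is a description of letters and not a shown binding site. The stretches below were chosen because their genes carry the results that follow; capitals mark ISRE letters, or GAS letters in the last 2, and overlapping matches run together. The stretches of Gbp7 and Igtp each also hold GAS letters, left in lower case. The first is from chr4:156200860-156200919 (minus strand), then chr19:34583372-34583431 (plus), chr5:120907526-120907585 (minus), chr3:142620589-142620618 (plus), chr3:142530248-142530307 (plus), chr11:58199487-58199546 (plus), chr11:48871430-48871459 (minus), and with GAS letters chr11:53769888-53769947 (plus) and chr17:34198082-34198111 (plus).
Isg15: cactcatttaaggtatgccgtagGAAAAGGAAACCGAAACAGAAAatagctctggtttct
Ifit3: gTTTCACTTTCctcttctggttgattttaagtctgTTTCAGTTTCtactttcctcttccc
Oas1a: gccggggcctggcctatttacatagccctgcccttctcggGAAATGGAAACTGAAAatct
Gbp2: taggaactcttttagTTTCACTTTCactgt
Gbp7: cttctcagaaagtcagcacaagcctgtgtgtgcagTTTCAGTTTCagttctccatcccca
Igtp: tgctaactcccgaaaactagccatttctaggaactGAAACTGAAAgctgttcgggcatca
Irgm1: ctgtttcaaGAAATAGAAACCGAAActgat
Irf1: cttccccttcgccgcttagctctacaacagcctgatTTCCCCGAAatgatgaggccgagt
Psmb8: attcagtcctccgctgTTCCCAGAAgatgc

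The 60 bases shown for Ifit3 also stand, letter for letter, before the start of its near copy Ifit3b at chr19:34607768-34607827 (plus). These bases hold no annotated exon base. Whether reads of 33 bases separate the transcripts of the pair was not examined, so their counts are uncertain. All 6 gamma-type genes with ISRE letters encode GTPases: Gbp2, Gbp3, Gbp5, Gbp7, Igtp and Irgm1. The antigen-processing genes Psmb8, Psmb9 and Tap1 had none, and Psmb8 had GAS letters. These 3 genes lie side by side on chromosome 17, where the starts of Psmb9 and Tap1 face away from each other 225 bases apart.

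Within a group the 44 genes differed in spread: the SD of log2 CPM between mice of a group was 1.22 for Ifi208, 1.11 for Ifi27l2a and 1.09 for Ifi44. Per kilobase of transcript, the highest mean levels over all mice were those of Psmb8 (59.9 CPM per kb), Ifi27l2a (54.2) and Irf1 (38.3), and the lowest were those of Ifng (0.277), Mx2 (0.543) and Mx1 (0.984).

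After 19 weeks of HDM most interferon response genes fell below the saline level. By edgeR's quasi-likelihood test with Benjamini-Hochberg adjustment over all 15979 genes (adjusted p under 0.05), 27 of the 44 were lower and 1 was higher than in saline, while over all genes tested 15.6% were lower and 19.2% were higher. The median log2 fold change was -1.17 over the 31 type I genes and -1.99 over the 12 gamma-type genes, against 0.01 over all genes tested. In 23 of the 44 genes every HDM mouse lay below every saline mouse, which held for 14.7% of all genes tested. The 5 saline mice also serve as the control of the other HDM comparisons below, so those comparisons are not independent of each other.

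**Figure D1:**
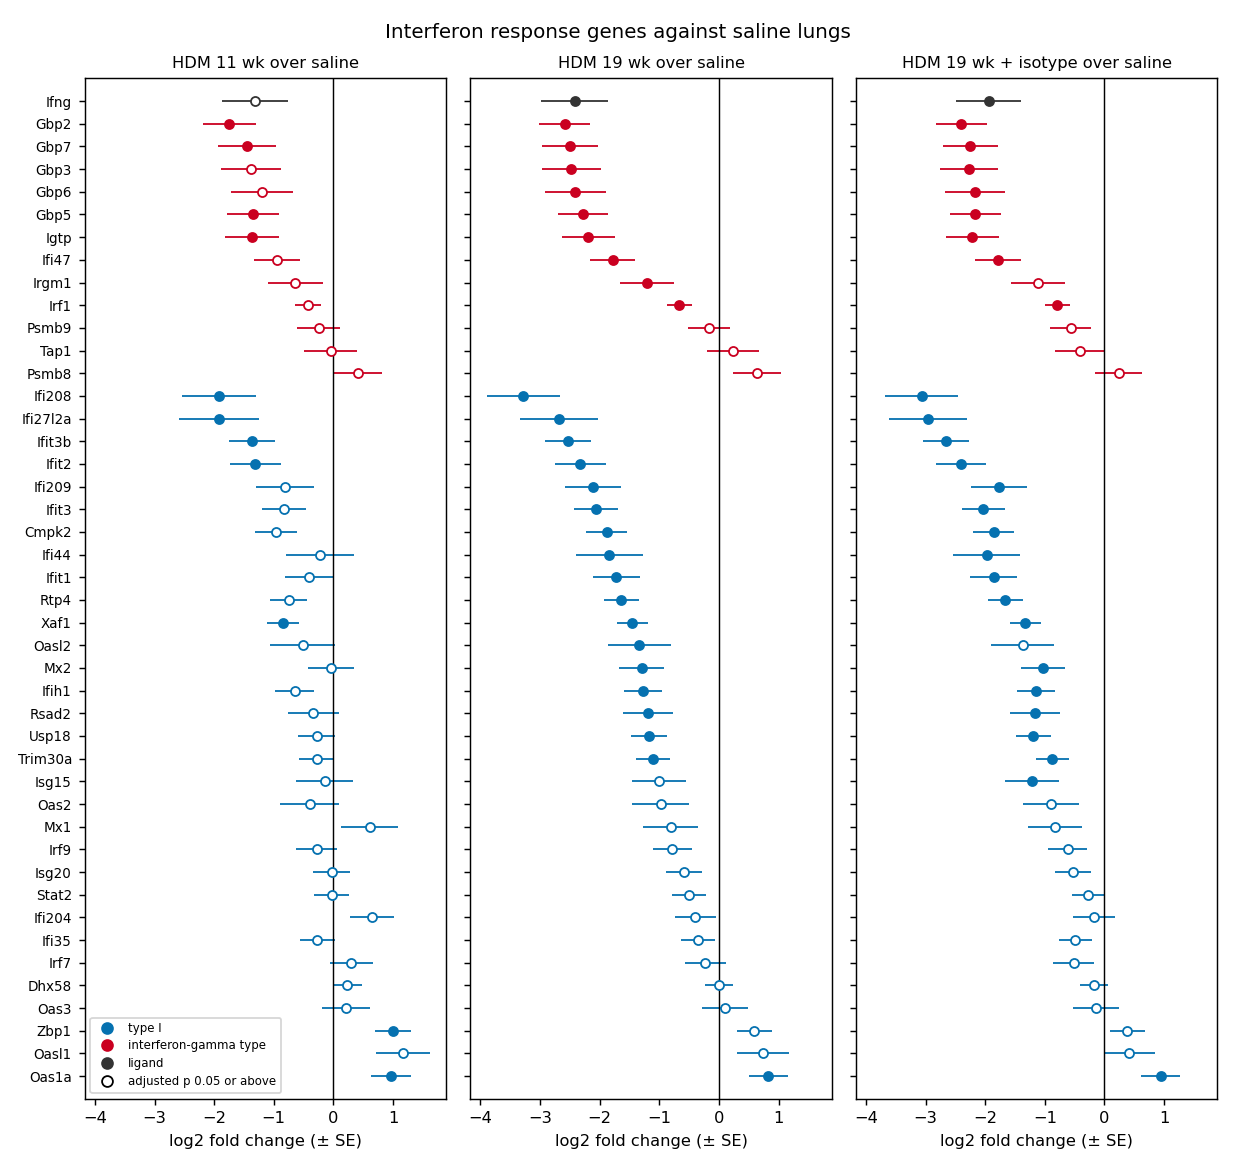
Log2 fold change (x axis, with bars of 1 standard error) of each of the 44 interferon response genes (y axis, coloured by class) in 3 comparisons with saline: HDM for 11 weeks, HDM for 19 weeks, and HDM for 19 weeks with isotype antibody. Filled points passed an adjusted p of 0.05; most points lie left of 0 at 19 weeks, and the antigen-processing genes Psmb8, Psmb9 and Tap1 lie near 0.

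In the plot of fold changes by gene, Ifi208 and Ifi27l2a stand at the low end and Oas1a stands above 0. Ifng, the ligand, was a scarce transcript. At 19 weeks of HDM it ran from 0 to 0.260 CPM with a median of 0.173 CPM (21 counts summed over 7 mice), and at 11 weeks from 0.0560 to 0.613 CPM with a median of 0.362 CPM, against 0.288, 1.10, 0.898, 0.70 and 1.25 CPM in the saline mice (108 counts summed over 5 mice). All 19-week mice were below all saline mice, but narrowly, at 0.260 CPM at most against 0.288 CPM at least. The highest 19-week count and the lowest saline count were both 6, so this separation rests on few counts. The 11-week mice overlapped the saline mice. The single 19-week mouse at 0 counts is compatible with up to 0.132 CPM (3 counts of its library, counting error only). The log2 fold change of Ifng was -2.42 ± 0.57 (SE, adjusted p = 0.0011) at 19 weeks and -1.31 ± 0.55 (adjusted p = 0.108) at 11 weeks.

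Of the other interferons listed, Ifnb1 had 3 counts in all 43 libraries together, 2 of them in saline mice and 1 in an isotype mouse, and Ifne and Ifnl2 had 0, so none could be tested and their change was not detectable at this depth. The receptor chains were well expressed and moved little. Of 6 receptor genes tested, Ifnar2 (0.47 ± 0.16, adjusted p = 0.0191) and Il10rb, a chain of the lambda interferon receptor (0.62 ± 0.16, adjusted p = 0.00331), rose at 19 weeks, and Ifngr1 fell by 0.48 on the log2 scale (adjusted p = 0.0145). Among all genes tested 19.2% were higher and 15.6% lower. Ifnar1 averaged 82.1 CPM at 19 weeks and 82.3 CPM in saline.

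Signalling genes outside the 44 moved in both directions at 19 weeks. Pias1, a regulator of cytokine signalling, fell by 0.86 (adjusted p = 0.0472). Socs1 and Socs3, feedback inhibitors of cytokine signalling, rose by 2.45 ± 0.67 (adjusted p = 0.00452) and 2.36 ± 0.46 (adjusted p = 0.000128). Of the 4 type I signalling genes among the 44, Usp18, which restrains the type I receptor, fell: it ran from 4.04 to 9.76 CPM (median 5.76) at 19 weeks, against 16.3, 15.6, 16.7, 12.0 and 12.4 CPM in saline mice, with no overlap (-1.17 ± 0.30, adjusted p = 0.00274). Stat2 (-0.50, adjusted p = 0.158) and Irf7 (-0.23, adjusted p = 0.62), the factors that carry and amplify the type I signal, did not pass the test.

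The type I effector genes did not move as a block. The 4 IFIT genes, which bind foreign RNA, all fell at 19 weeks, by a median of 2.19 on the log2 scale. Ifit3 had 8.23 to 30.3 CPM at 19 weeks (median 13.8), against 78.7, 81.1, 54.3, 57.5 and 55.4 CPM in saline mice, so the groups did not overlap (-2.06 ± 0.36, adjusted p = 3.34e-05). Ifit1 had 1.93 to 14.9 CPM at 19 weeks (median 5.02), against 34.0, 25.7, 24.9, 16.4 and 18.2 CPM in saline mice, again with no overlap (-1.72 ± 0.39, adjusted p = 0.000829). Of the 5 genes of the oligoadenylate synthetase family, which sense double-stranded RNA, 1 fell (Oasl2, -1.34 ± 0.53, adjusted p = 0.0459) and 1 rose. The one that rose, Oas1a, ran from 14.6 to 29.2 CPM (median 24.7) at 19 weeks, against 14.6, 11.5, 20.1, 5.83 and 10.7 CPM in saline mice, with overlap (0.83 ± 0.33, adjusted p = 0.0449), and this call was lost when the GC slope entered the fit (0.54, adjusted p = 0.182).

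Isg15, the ubiquitin-like protein that gives the family its best-known marker, showed wide spread and did not pass the test at 19 weeks. It ran from 3.59 to 11.6 CPM (median 8.08) after HDM, against 15.3, 11.6, 33.3, 7.5 and 11.8 CPM in saline mice (-1.01 ± 0.46, adjusted p = 0.0786). Ifi27l2a, a small interferon-induced membrane protein, and Ifi208, of the family that includes DNA sensors, had the largest falls at 19 weeks (-2.69 ± 0.65, adjusted p = 0.00167, and -3.28 ± 0.62, adjusted p = 8.69e-05). Saline mouse 3 alone reached 203 CPM of Ifi27l2a, with 14.5 to 44.9 CPM in the other 4, and without it the fall was 1.63 on the log2 scale (adjusted p = 0.0384). Ifi208 ran from 0.671 to 3.86 CPM at 19 weeks, against 9.31, 20.8, 9.95, 18.2 and 14.6 CPM in saline mice. Of the RNA and nucleic acid sensors, Ifih1 (MDA5) fell by 1.27 ± 0.32 (adjusted p = 0.00229). It had 13.3 to 32.9 CPM at 19 weeks against 46.1 to 64.3 CPM in saline mice. The sensor Zbp1 (0.60, adjusted p = 0.107) did not pass, nor did the antiviral gene Mx1 (-0.81, adjusted p = 0.162). Rsad2 (viperin), an antiviral enzyme, fell by 1.19 ± 0.42 (adjusted p = 0.0266).

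The interferon-gamma type genes split by role, a grouping made after the values were seen. All 8 interferon-inducible GTPases, which attack the vacuoles of intracellular microbes (Gbp2, Gbp3, Gbp5, Gbp6, Gbp7, Igtp, Irgm1 and Ifi47), fell at 19 weeks, by 1.20 to 2.59 on the log2 scale with a median of 2.34, and in each the 19-week mice lay wholly below the saline mice. Gbp2 ran from 14.5 to 38.5 CPM (median 34.0) at 19 weeks and from 38.2 to 74.3 CPM (median 48.1) at 11 weeks, against 154, 332, 135, 133 and 110 CPM in saline mice. Its log2 fold change at 19 weeks was -2.59 ± 0.43 (adjusted p = 1.42e-05).

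Igtp (Irgm3) ran from 7.83 to 25.9 CPM (median 18.9) at 19 weeks, against 54.4, 170, 68.6, 73.1 and 57.5 CPM in saline mice (-2.19 ± 0.44, adjusted p = 0.000216). Saline mouse 2 was the highest of its group in 11 of the 12 gamma-type genes, and without it the falls were 2.23 for Gbp2 (adjusted p = 0.000213) and 1.80 for Igtp (adjusted p = 0.00304), while Irgm1 no longer passed (-1.01, adjusted p = 0.109). Gbp3 (-2.47), Gbp6 (-2.41) and Gbp7 (-2.49) fell by like amounts. The near-identical members of this family may share reads, so the levels of single Gbp genes are uncertain. Irf1, a transcription factor induced by interferon-gamma, ran from 57.5 to 92.7 CPM (median 73.0) at 19 weeks, against 109, 145, 116, 108 and 114 CPM in saline mice, with no overlap (-0.66 ± 0.21, adjusted p = 0.0126).

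The 3 antigen-processing genes gave no call. Psmb8 and Psmb9 are immunoproteasome subunits and Tap1 carries peptides to class I molecules. Their transcripts are richer in GC (52.5% in Psmb8, 54.1% in Psmb9 and 55.8% in Tap1) than those of the 8 GTPases. The GTPases run from 41.1% (Gbp6) to 49.5% (Igtp), while Irf1, which fell, has 52.8%. The part of GC content in the split by role was not tested. Psmb8 ran from 61.6 to 153 CPM (median 99.7) at 19 weeks, against 60.2, 72.1, 86.7, 56.9 and 58.8 CPM in saline mice (0.64 ± 0.40, adjusted p = 0.209). Tap1 ran from 52.8 to 196 CPM (median 86.3), against 64.7, 113, 94.5, 73.2 and 83.5 CPM in saline mice (0.24 ± 0.43, adjusted p = 0.683). With the GC slope in the fit both signs turned: Tap1 fell by 0.87 (adjusted p = 0.00377) and Psmb8 stood at -0.32 (adjusted p = 0.259). In the same fit the falls of Gbp2 (-1.76, adjusted p = 4.8e-05), Igtp (-1.60, adjusted p = 0.00317), Ifit3 (-2.09, adjusted p = 3.37e-05), Ifng (-2.33, adjusted p = 0.00217) and Irf1 (-0.68, adjusted p = 0.0131) passed.

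**Figure D2:**
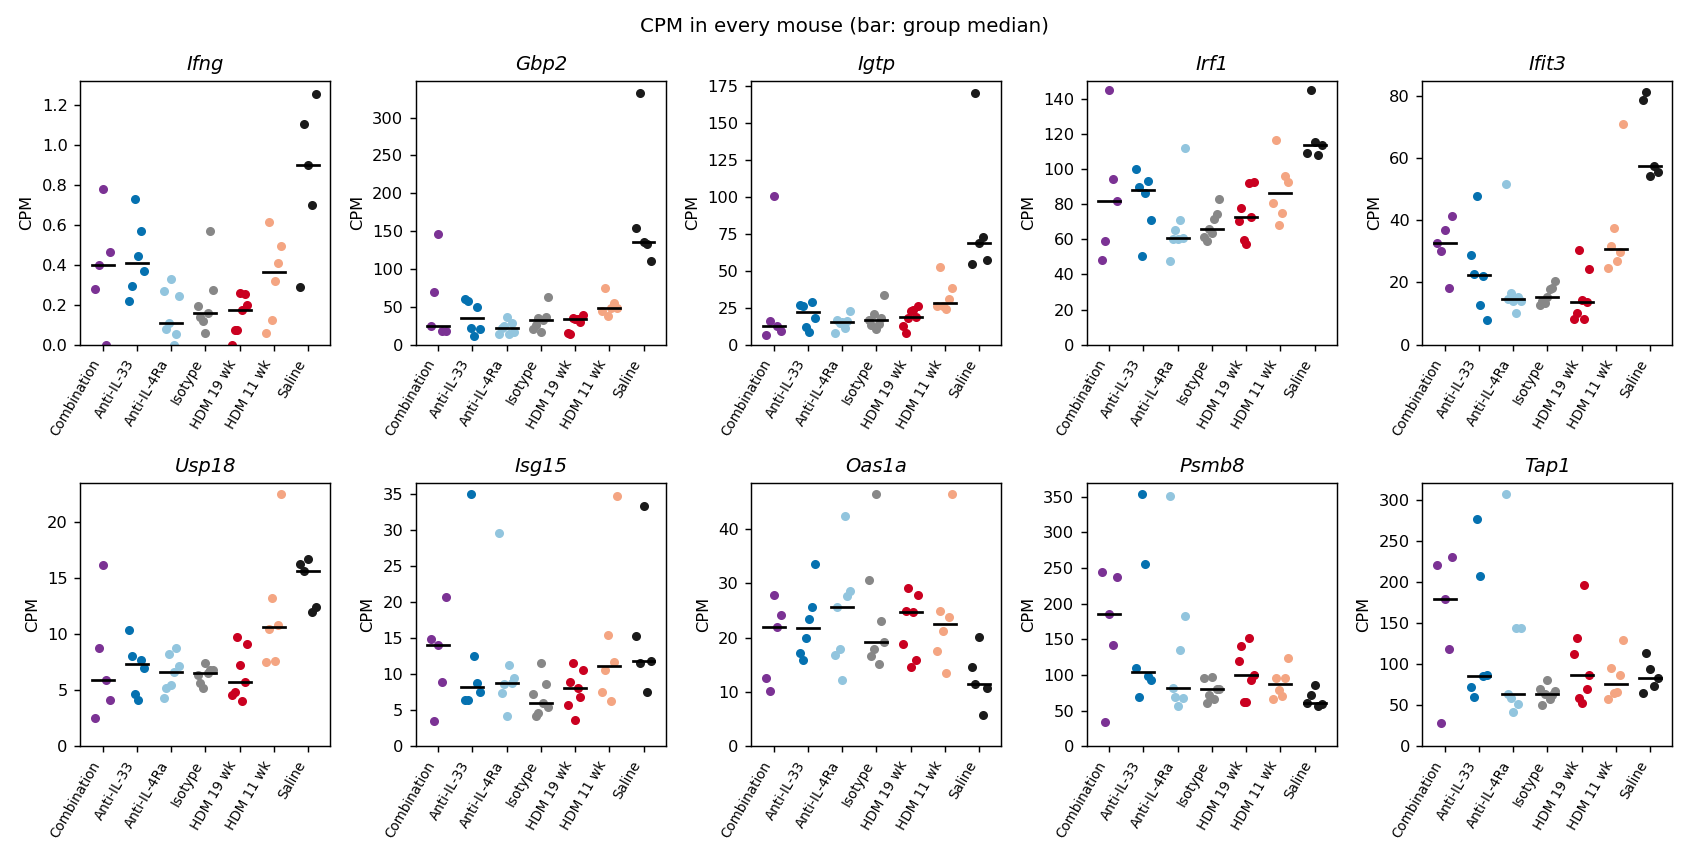
CPM per mouse (points, with a line at the group median; y axis in CPM) of Ifng, Gbp2, Igtp, Irf1, Ifit3, Usp18, Isg15, Oas1a, Psmb8 and Tap1 in the 7 groups, from the combination at the left to saline at the right. For Gbp2, Igtp, Irf1, Ifit3 and Usp18 the saline mice stand above all mice of HDM for 19 weeks, while Psmb8 and Tap1 spread widest in the antibody groups.

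At 11 weeks of HDM fewer genes were called. Of the 8 GTPases 4 were lower, and of the 31 type I genes 5 were lower and 2 higher. Of the 44, 9 were lower and 2 were higher than in saline, beside 6.74% lower and 8.65% higher among all genes tested, and the median log2 fold change was -0.28 for type I and -1.07 for gamma-type genes. The genes that fell included Gbp2 (-1.75 ± 0.44, adjusted p = 0.00471), Gbp7 (-1.45 ± 0.48, adjusted p = 0.0338), Igtp (-1.36 ± 0.46, adjusted p = 0.0354) and Ifit3b (-1.36 ± 0.39, adjusted p = 0.0125). The sensor Zbp1 ran from 22.7 to 48.1 CPM at 11 weeks (median 30.6), against 20.5, 24.5, 15.0, 9.29 and 16.8 CPM in saline mice, and rose by 1.0 ± 0.30 (adjusted p = 0.0188). Oas1a rose by 0.97 ± 0.34 (adjusted p = 0.0427). Isg15 (-0.15, adjusted p = 0.89) and Ifit3 (-0.82, adjusted p = 0.143) did not pass. The count of 11 calls ranged from 3 (without 11-week mouse 3) to 12 (without saline mouse 3), and was 4 without saline mouse 2, 5 without saline mouse 4, and 6 without 11-week mouse 1, 4 or 8. It was 22, of which 19 were lower, with calls among all genes at 33.1% (15.4% with all libraries), when the 9 libraries with a GC slope above 0.75, none of them from the 11-week or saline mice, were left out of the shared model. Ifi27l2a (-1.92, adjusted p = 0.0461) no longer passed without saline mouse 3 (-0.84, adjusted p = 0.448), nor did Igtp without saline mouse 2 (-0.96, adjusted p = 0.212).

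Set directly against 11 weeks, the 19-week mice gave no call among the 44 genes, with edgeR or with DESeq2, and over all genes 0.106% were called (0.0188% lower and 0.0876% higher). The point estimates leaned down: 41 of 44 log2 fold changes were negative with a median of -0.83, 23 passed 0.05 without adjustment, and no adjusted p was below 0.159. The difference between the 2 times is therefore not settled by these mice. Among the 11-week mice, mouse 9 had the highest level of its group in 26 of the 31 type I genes, with Isg15 at 34.8 CPM and Irf7 at 67.3 CPM, while mouse 2 was highest in 9 of the 12 gamma-type genes.

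To set the 2 classes side by side, each mouse was given the mean log2 CPM of each class, as a difference from the saline mean. At 11 weeks the type I mean was -0.34 ± 0.42 and the gamma-type mean -0.84 ± 0.30 (SD, n = 6). At 19 weeks they were -1.17 ± 0.47 and -1.47 ± 0.34 (SD, n = 7), and in saline mice the SD around 0 was 0.24 and 0.40 (n = 5). The gap, type I minus gamma-type, was 0.50 ± 0.40 at 11 weeks (0.02 to 1.14) and 0.30 ± 0.34 at 19 weeks (-0.10 to 0.82). Saline mice ran from -0.53 to 0.38, so single mice overlapped saline at both times. The mean gap was also positive with isotype antibody (0.40 ± 0.27), anti-IL-33 (0.28 ± 0.21), anti-IL-4Rα (0.60 ± 0.18) and the combination (0.37 ± 0.60). No test was made on these means, whose members were chosen with earlier results known.

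**Figure D3:**
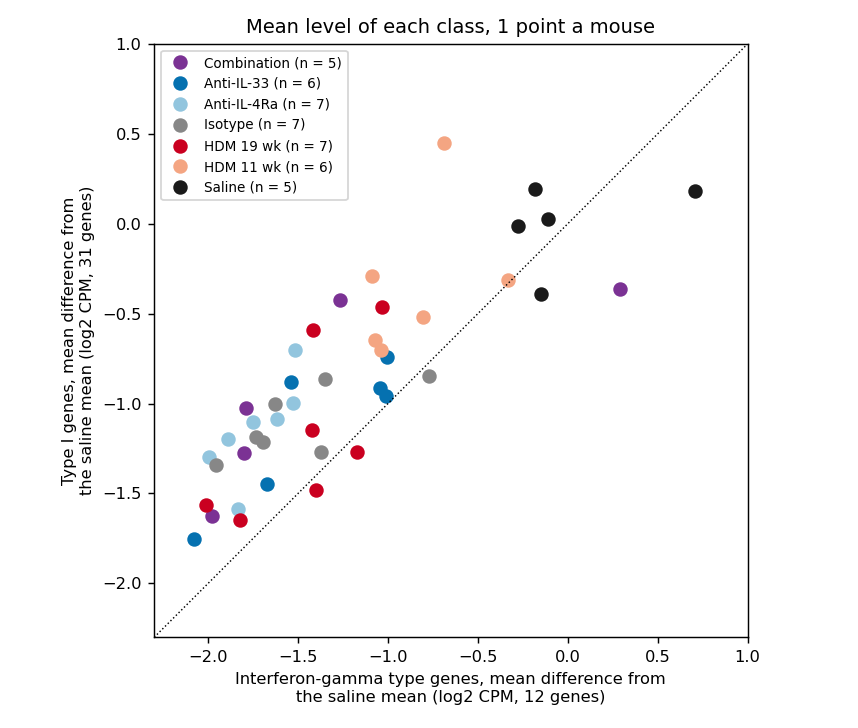
Each point is a mouse: the mean log2 CPM of the 12 gamma-type genes (x axis) and of the 31 type I genes (y axis), both as differences from the saline mean, coloured by group, with a dotted line of equality. Saline mice lie around 0, and the 11-week mice lie above the line with type I means from -0.70 to 0.45. The 19-week mice lie lower on average on both axes, with overlap on each.

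Mice given isotype antibody were also lower than saline in most of the genes. Against 19 weeks of HDM with no antibody, the isotype mice gave no call among the 44 genes or among all genes tested (0% in both directions), and 0 of the 44 had an unadjusted p under 0.05; DESeq2 gave 0 of the 44. Against saline, 26 were lower and 1 was higher (25.3% of all genes were called, 12.4% lower and 13% higher), with medians of -1.14 for type I and -1.98 for gamma-type genes. Ifit3 ran from 12.6 to 20.5 CPM (median 15.4) in isotype mice and fell by 2.03 (adjusted p = 4.37e-05) relative to the saline mice given above. Gbp2 ran from 16.7 to 62.6 CPM (median 31.9) and fell by 2.40 (adjusted p = 4.25e-05). Ifng ran from 0.0575 to 0.568 CPM (median 0.156), overlapping the saline mice, and fell by 1.94 ± 0.54 (adjusted p = 0.00633). Isg15 passed here (-1.22, adjusted p = 0.0434), Irgm1 did not (-1.12, adjusted p = 0.0624), and Oas1a was higher (0.94, adjusted p = 0.0289; 0.73 and adjusted p = 0.0589 with the GC slope in the fit).

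Other genes of the same pathways moved with them in part. The lists used here and in the next paragraphs follow function but were chosen with earlier results of these data known. They are therefore not independent support. Of 18 further type I genes, 7 fell and 0 rose at 19 weeks, among them Samd9l (-1.65, adjusted p = 0.00328), an antiviral growth regulator, Sp100 (-1.49, adjusted p = 0.00123), a nuclear body protein, and Ddx60 (-1.26, adjusted p = 0.000355), a helicase. Of 21 further gamma-type genes tested, 6 fell and 4 rose. Both lists stand beside 15.6% lower and 19.2% higher among all genes tested. Ido1, which degrades tryptophan, averaged 0.216 CPM after HDM and 2.89 CPM in saline (-3.60 ± 0.69, adjusted p = 0.000109), and the GTPases Gbp4 (-2.92, adjusted p = 0.000225), Gbp9 (-2.19, adjusted p = 0.00511) and Irgm2 (-2.16, adjusted p = 0.000647) fell too. Nos2, the inducible nitric oxide synthase, rose by 2.71 ± 0.40 (adjusted p = 2.11e-06), and the class I gene H2-D1 rose by 0.84 (adjusted p = 0.0024). The chemokines Cxcl9 (-0.80, adjusted p = 0.314) and Cxcl10 (-0.78, adjusted p = 0.22) and the class I light chain B2m (-0.09, adjusted p = 0.855) did not pass.

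Of 12 genes that induce interferon-gamma or act upstream of it, 6 fell and 0 rose at 19 weeks, beside 15.6% lower and 19.2% higher among all genes tested. They included Il12a, a subunit of IL-12, with 0.526 CPM after HDM and 2.45 CPM in saline (-2.20, adjusted p = 0.000165), Il18 (-1.86, adjusted p = 0.00232), Il27 (-1.91, adjusted p = 0.0056) and Tbx21, the T-bet transcription factor of NK and type 1 T cells (-1.56, adjusted p = 0.00741). At 11 weeks 1 of the 12 fell, Il18 (-2.02, adjusted p = 0.00354), beside 6.74% of all genes tested. Of 10 nucleic acid sensing genes, 3 rose and 1 fell at 19 weeks, beside the same 19.2% higher and 15.6% lower among all genes tested. Sting1 rose by 1.39 (adjusted p = 2.12e-06), Ticam1 by 1.06 (adjusted p = 0.0164) and Myd88 by 1.04 (adjusted p = 0.00299), and Tlr3 fell by 1.08 (adjusted p = 0.00602).

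Markers of NK cells, a main source of interferon-gamma, were lower in the same mice. Summed over 10 NK genes, the level was 24.0 ± 13.4 CPM at 11 weeks (12.6 to 48.1), 9.96 ± 6.54 CPM at 19 weeks (5.25 to 24.4) and 9.41 ± 4.73 CPM with isotype antibody (3.34 to 17.2), against 91.7 ± 33.1 CPM in saline mice (54.7 to 142). Of 9 NK genes tested, 8 fell in each of these comparisons. Among all genes tested 6.74% were lower at 11 weeks, 15.6% at 19 weeks and 12.4% with isotype antibody. At 19 weeks Ncr1, the NK receptor NKp46, fell by 3.21 (adjusted p = 8.17e-07) and Gzma, a granule protease, by 3.74 (adjusted p = 3.33e-06).

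Among 10 T cell genes, 4 fell at 19 weeks, among them Cd8a (-2.35, adjusted p = 0.000123) and Cd8b1 (-2.27, adjusted p = 5.09e-06), and the sum ran from 61.0 to 121 CPM, against 100.2 to 203 CPM in saline mice. The 11 endothelial genes, of a cell type that carries interferon-induced GTPases, summed to 1048 to 2162 CPM at 19 weeks, against 3016 to 4076 CPM in saline mice, and 6 of them fell. The 8 genes of plasmacytoid dendritic cells, known as makers of type I interferon, summed to 293 CPM at 19 weeks and 292 CPM in saline on average, with 2 lower (Siglech, -1.60, and Klk1, -2.13), 1 higher (Pacsin1, 1.18) and a median log2 fold change of 0.01. That sum was mostly Tcf4, with 191 CPM at 19 weeks and 218 CPM in saline, so it says little about the scarce genes. Siglech averaged 0.794 CPM at 19 weeks and 2.42 CPM in saline, with no overlap. Of 8 genes each at 19 weeks, 4 monocyte genes fell and 1 rose (Ly6c2, 2.31, adjusted p = 2.18e-06), 5 B cell genes fell and 0 rose, and no neutrophil gene was called. Of 9 alveolar macrophage genes 3 rose and 4 fell, with a median of -0.40; their sum, 9249 CPM on average at 19 weeks and 556 CPM in saline, was mostly Chil3, with 8689 CPM at 19 weeks and 310.5 CPM in saline. These marker counts at 19 weeks stand beside 15.6% lower and 19.2% higher among all genes tested. None of the listed marker genes was at 0 in every mouse of a group. The part these cell types had in the levels of the interferon response genes was not tested.

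**Figure D4:**
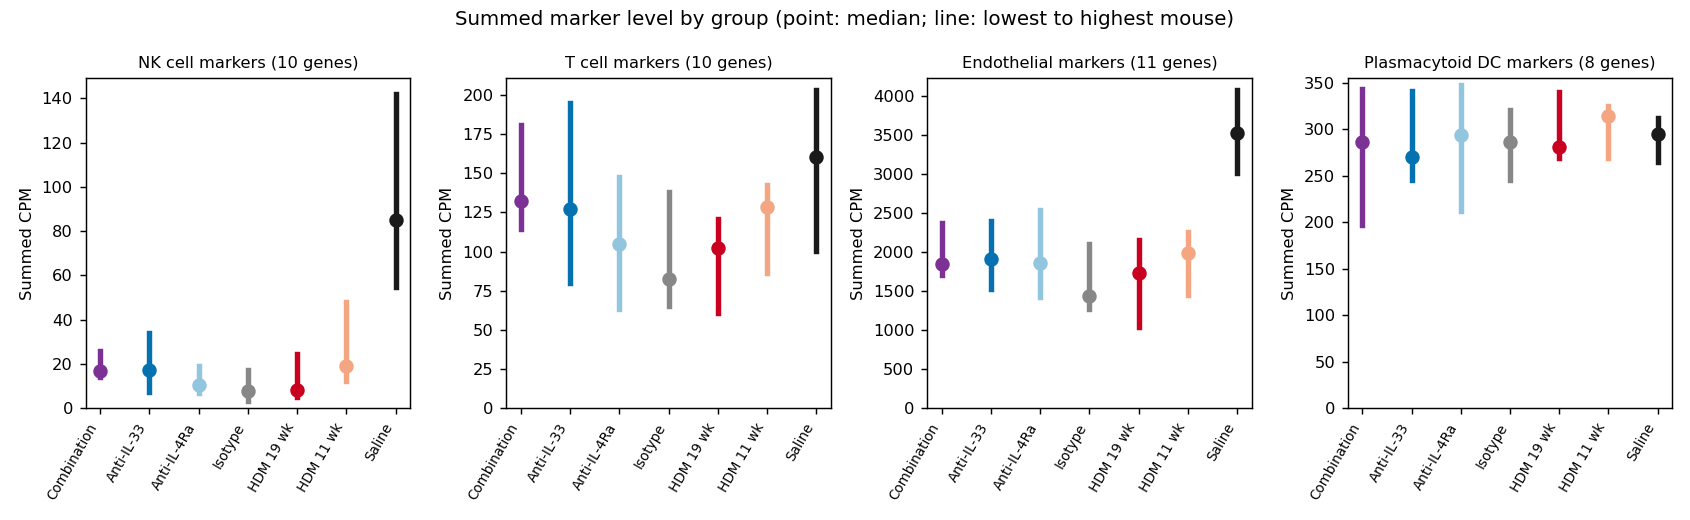
Summed CPM (y axis) of the marker genes of NK cells (10 genes), T cells (10), endothelium (11) and plasmacytoid dendritic cells (8) in each of the 7 groups, as the median (point) with the lowest and highest mouse (line). The NK sums of all HDM groups lie below the lowest saline mouse, at 54.7 CPM. The plasmacytoid dendritic cell sums overlap across groups, and Tcf4 is the largest part of their mean in every group.

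Blocking IL-33 or IL-4Rα alone gave no call. Against isotype antibody, anti-IL-33 changed 0 of the 44 genes (0% of all genes in either direction; 8 of the 44 with an unadjusted p under 0.05, lowest adjusted p 0.246), and anti-IL-4Rα changed 0 (0% of all genes in either direction; 6 with an unadjusted p under 0.05, lowest adjusted p 0.308). DESeq2 gave 0 of the 44 in both. Gbp2 ran from 11.3 to 59.96 CPM with anti-IL-33 (median 35.6) and from 13.5 to 35.8 CPM with anti-IL-4Rα (median 22), both overlapping the isotype mice. Ifng ran from 0.217 to 0.729 CPM with anti-IL-33 (median 0.406; log2 fold change over isotype 0.94, adjusted p = 0.329) and from 0 to 0.327 CPM with anti-IL-4Rα (median 0.110; -0.50, adjusted p = 0.696). Psmb8 reached 354 CPM with anti-IL-33 (lowest 68.6) and 351 CPM with anti-IL-4Rα (lowest 57.2), against 61.0 to 97.6 CPM with isotype antibody, and its log2 fold changes were 1.05 (adjusted p = 0.246) and 0.77 (adjusted p = 0.334).

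The combination raised 5 of the 44 genes over isotype antibody and lowered 0, beside 12.6% higher and 6.32% lower among all genes tested, so the share of calls among the 44 was not above that of all genes. The 5 were Ifi27l2a (2.48 ± 0.65, adjusted p = 0.0167), Tap1 (1.27 ± 0.42, adjusted p = 0.0372), Psmb9 (1.16 ± 0.35, adjusted p = 0.0262), Psmb8 (1.09 ± 0.39, adjusted p = 0.0471) and Ifit3 (0.99 ± 0.36, adjusted p = 0.048). Psmb8 stood at 244, 33.7, 185, 141 and 237 CPM in the combination mice, against 61.0 to 97.6 CPM (median 80.0) in isotype mice. Tap1 stood at 220, 28.6, 179, 119 and 231 CPM, against 49.7 to 80.7 CPM (median 63.9) in isotype mice. In both genes 4 combination mice were above every isotype mouse and mouse 2 was below every one.

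Ifit3 stood at 32.5, 30.2, 36.7, 18.2 and 41.3 CPM in combination mice, against 12.6 to 20.5 CPM in isotype mice. Ifi27l2a stood at 62.1, 8.53, 19.8, 16.7 and 126 CPM in combination mice, against 4.87 to 12.8 CPM in isotype mice. For both, 4 of 5 combination mice were above every isotype mouse. The GTPases were spread over a wide range: Gbp2 stood at 25.2, 69.3, 146, 17.5 and 18.3 CPM and Igtp at 6.62, 15.8, 101, 12.3 and 9.44 CPM in combination mice, and neither passed (0.76, adjusted p = 0.169, and 0.68, adjusted p = 0.235). Ifng stood at 0.280, 0.400, 0.777, 0 and 0.464 CPM (0.84, adjusted p = 0.265).

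All 5 calls of the combination were lost when the GC slope entered the fit, when the replicate number entered as a block, and when the libraries with a slope above 0.75 were left out, which leaves combination mice 2 and 3; in that last setting 13 other genes of the 44 were higher, beside 2.98% of all genes called (19% with all libraries). With the GC slope in the fit 5 other genes of the 44 were higher, beside 15.6% of all genes called. The count ranged from 0 (without combination mouse 1 or 8) to 7 (without combination mouse 2), and was 2 or 3 without isotype mouse 1, 2, 3, 6, 8 or 9.

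The 9 libraries above 0.75 came from 4 groups and none from isotype, 11-week or saline mice, so levels were compared within the groups that held several. In the combination Psmb8 ran from 141 to 244 CPM in the 3 libraries above 0.75, against 33.7 and 185 CPM in the other 2. With anti-IL-33 it ran from 255 to 354 CPM in 2 libraries, against 68.6 to 110.5 CPM in the other 4, and with anti-IL-4Rα from 135 to 351 CPM in 3, against 57.2 to 81.7 CPM in the other 4. Tap1 likewise had no overlap with anti-IL-33 (207 to 277 CPM, against 59.4 to 86.2 CPM) or with anti-IL-4Rα (144 to 307 CPM, against 41.2 to 63.3 CPM).

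Gbp2 was lower above 0.75 in the combination (17.5 to 25.2 CPM, against 69.3 and 146 CPM) and with anti-IL-4Rα (13.5 to 16.7 CPM, against 22 to 35.8 CPM), and overlapped with anti-IL-33 (11.3 to 21.5 CPM, against 20.6 to 59.96 CPM). Igtp was lower above 0.75 in the combination (6.62 to 12.3 CPM, against 15.8 and 101 CPM) and with anti-IL-33 (8.44 to 11.7 CPM, against 17.8 to 28.8 CPM), and overlapped with anti-IL-4Rα (8.01 to 22.7 CPM, against 14.8 to 16.6 CPM).

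**Figure D5:**
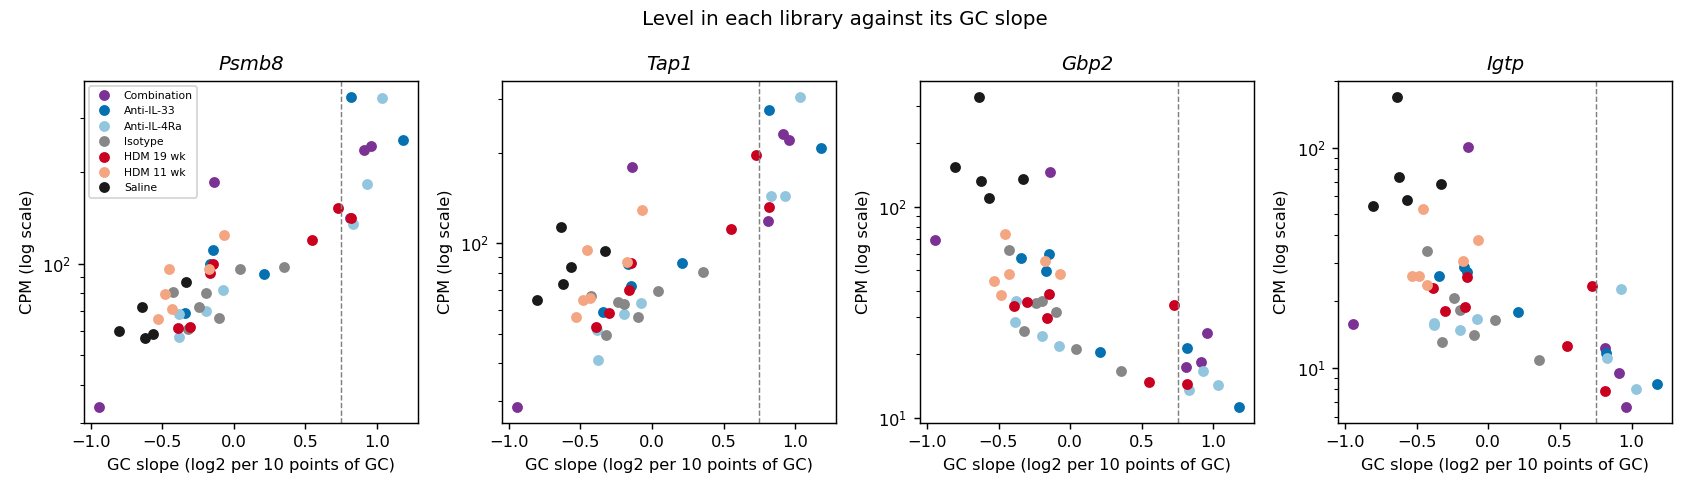
CPM (y axis, log scale) of Psmb8, Tap1, Gbp2 and Igtp against the GC slope of each of the 43 libraries (x axis, change in log2 value per 10 percentage points of GC), coloured by group, with a dashed line at 0.75. Right of the line, where 4 of the 7 groups have libraries, Psmb8 and Tap1 are mostly high and Gbp2 and Igtp mostly low; the saline libraries lie at the left end.

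Among antibody groups the combination gave no call against anti-IL-33 (0% higher and 0.0438% lower among all genes; 1 of the 44 with an unadjusted p under 0.05) or against anti-IL-4Rα (0.119% of all genes, 0.0188% higher and 0.1% lower; 8 of the 44 with an unadjusted p under 0.05, lowest adjusted p 0.222). Anti-IL-33 against anti-IL-4Rα also gave no call (0% in both directions), and only Ifng had an unadjusted p under 0.05 (log2 fold change 1.44). DESeq2 gave 0 of the 44 in all 3. In the combination, genes outside the 44 also moved over isotype antibody: Il18 averaged 41.6 CPM with the combination and 7.29 CPM with isotype (2.51 ± 0.47, adjusted p = 0.00343), B2m rose by 1.5 (adjusted p = 0.0093) and Cxcl9 by 1.78 (adjusted p = 0.0445), and the receptor chains Ifnar1 and Ifngr2 fell by 1.09 (adjusted p = 0.0404) and 1.10 (adjusted p = 0.031). Ifnar1 stood at 19.2, 81.5, 64.2, 27.4 and 17.2 CPM in combination mice, against 82.9 to 92.4 CPM in isotype mice. The 3 combination libraries with a GC slope above 0.75 held the values 19.2, 27.4 and 17.2 CPM. The part of the slope in this fall was not tested. Of the NK genes 2 of 9 rose, beside 12.6% of all genes tested. The NK sums were 14.2 to 25.8 CPM in combination mice and 3.34 to 17.2 CPM in isotype mice.

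Set against saline, in comparisons added after the data were seen, most of the genes called were lower in each antibody group. The counts were 20 lower and 1 higher with the combination (20.3% and 27.8% of all genes), 27 lower and 3 higher with anti-IL-33 (17.9% and 25.2%), and 28 lower and 3 higher with anti-IL-4Rα (18.6% and 25.9%). All 8 GTPases were lower in each, with medians of -1.55 with the combination, -2.22 with anti-IL-33 and -2.57 with anti-IL-4Rα. The fall of Gbp2 was 1.64 with the combination (adjusted p = 0.00542), 2.23 with anti-IL-33 (adjusted p = 0.000285) and 2.96 with anti-IL-4Rα (adjusted p = 2.03e-06). Psmb8 was the only gamma-type gene called higher in each antibody group. Its log2 fold changes were 1.33 ± 0.44 with the combination, 1.29 ± 0.42 with anti-IL-33 and 1.01 ± 0.41 with anti-IL-4Rα. With the GC slope in the fit none of these calls passed and the values were 0.07, 0.05 and -0.26. Psmb9 and Tap1 also had positive values but did not pass. The 3 antigen-processing genes ran from 0.59 to 1.33 with the combination. They ran from 0.51 to 1.29 with anti-IL-33 and from 0.09 to 1.01 with anti-IL-4Rα. The combination count was 12 without combination mouse 1, 10 with the GC slope in the fit and 2 without the libraries above 0.75, and the share of all genes called, 48.1% with all libraries, was lower there as well (30.2%, 23.3% and 15.9%). In the gamma-type mean, combination mouse 3 stood at 0.29 above the saline mean, while the group averaged -1.31 ± 0.93 (SD, n = 5).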

How the data were processed

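The deposited table holds expected counts, estimated read numbers per NCBI Gene ID that the authors made from single reads of 33 cycles of strand-specific libraries, per the labels; 76.8% of nonzero values are whole (tolerance 0). The build was mm10, per the submitters' processing notes. No aligner, counter, annotation or use of strand is given in the sources used here, so near copies (Ifit3 and Ifit3b, Gbp, Oas and Ifi200 genes) are uncertain. Symbols came from RefSeq (24375 IDs matched).

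Expected counts were rounded and filtered with filterByExpr. One group-means model covered all 43 libraries (R 4.3.3; edgeR 4.0.16 with TMM scaling and the robust quasi-likelihood test; biological coefficient of variation 0.431 on 36 residual degrees of freedom). Benjamini-Hochberg adjustment ran over all genes tested in each of 11 contrasts and 3 added ones. Tests were 2-sided and the errors of fold changes are standard errors. The fit was tested on simulated data. CPM used TMM library sizes, and log2 CPM a prior count of 1. Intervals and floors (3 counts) cover counting error only.

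The members and gene lists were chosen with earlier results of these data known. Genes are named by a rule: up to 6 called members per direction and contrast by size, a fixed set of 21 members, and up to 4 called genes of each other list with 6 fixed ones. The role groups, Psmb9 beyond the combination, Irgm2 and H2-D1 were named after values were seen. Alternatives were DESeq2 1.42.0 and its size factors, limma 3.58.1 (voom with sample weights), no filter, the replicate number as a block, fits of only the groups compared, the GC slope as a covariate, leaving out libraries above a slope of 0.75 (or 0.7, added later), and leaving out each mouse. One gene of the signalling list is not reported here, and no count is given for that list.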

Additional observations from a re-analysis of the deposited data

Results flagged for a closer look

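In 147 groups of 5 to 7 mice looked at, 10 held a mouse whose log2 CPM stood far from the rest of its group by Dixon's criterion; chance alone gives about 1 in 20 groups, so 10 is near that number. Saline mouse 2 was such a high value for 4 interferon-gamma type genes: Irf1 at 7.18 (145 CPM, next mouse 116 CPM), Gbp6 at 7.52 (183 CPM, next 78.9 CPM), Igtp at 7.41 (170 CPM, next 73.1 CPM) and Irgm1 at 6.70 (104 CPM, next 62.2 CPM). Irf7 was high in 11-week mouse 9 at 6.07 (67.3 CPM, next 23.0 CPM) and low in saline mouse 4 at 3.91 (14.9 CPM, next 22.6 CPM). In anti-IL-4Rα mouse 2, whose library has a GC slope of 1.03, Ifit3 was high at 5.70 (51.8 CPM, next 16.6 CPM) and Stat2 was low at 3.99 (15.9 CPM, next 36.6 CPM). Ifih1 was low in anti-IL-33 mouse 5, with a GC slope of 1.18, at 3.17 (8.96 CPM, next 20.9 CPM). Psmb8 was low in combination mouse 2, with a GC slope of -0.94, at 5.08 (33.7 CPM, next 141 CPM). The part of the slope in these values was not tested.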

How the results depend on the processing

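Counts of called members among the 44 are given by contrast. HDM for 19 weeks against saline gave 26 to 35 calls and isotype against saline 25 to 38 under the alternatives other than leaving out a mouse. The share of all genes called in the same setting follows each count in the rest of this paragraph. The 19-week count was 35 (64.6%) with limma voom and 26 (24.1%) with the replicate block. The isotype count was 38 (65.8%) with limma voom and 25 (20.6%) with the replicate block. With limma voom the counts were 29 (53.9%) for HDM 11 weeks against saline, 6 (1.9%) for 19 against 11 weeks, all lower, 4 (6.33%) for anti-IL-33 against isotype, 15 (58%; 8 higher, 7 lower) for combination against isotype, 13 (48.8%) against anti-IL-33, 11 (53.3%) against anti-IL-4Rα and 35 (68.8%) against saline, and 2 (4.54%) for anti-IL-33 against anti-IL-4Rα. Without the filter combination against isotype gave 3 (11.2%). Fitting only the 2 groups gave 23 (39.6%) for HDM 11 weeks and 8 (32%) for the combination, both against saline. With the GC slope as covariate, combination against anti-IL-4Rα gave 2 (3.75%) and against saline 10 (23.3%), and Psmb8 in anti-IL-4Rα against saline turned to -0.26. Without libraries above a slope of 0.75 the counts were 22 (33.1%) for HDM 11 weeks against saline, 5 (1.16%) for 19 against 11 weeks, 13 (2.98%) for combination against isotype, 1 (0.809%) against anti-IL-33, 1 (0.237%) against anti-IL-4Rα and 2 (15.9%) against saline; above 0.7 they were 23 (35.8%) for HDM 11 weeks against saline, 13 (4.18%) for combination against isotype, 1 (0.262%) against anti-IL-4Rα and 3 (17.7%) against saline. The cause was not tested.

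Leaving out 1 mouse at a time gave 3 to 12 for HDM 11 weeks, 24 to 29 for HDM 19 weeks, 23 to 27 for isotype, 26 to 31 for anti-IL-33, 27 to 31 for anti-IL-4Rα and 12 to 30 for the combination, all against saline; 0 to 7 for combination against isotype; 0 to 1 for combination against anti-IL-4Rα; and 0 in the other 5 contrasts. The share of all genes called is not given for these fits. The replicate block gave 11 (12.2%), 26 (24.1%) and 25 (20.6%) for HDM 11 weeks, HDM 19 weeks and isotype against saline. It gave 0 (3.45%) for combination against isotype. Same-numbered mice did not as a rule deviate together (median r -0.0118 over 88 pairs, from -0.696 to 0.647, 31 over 0.1). Of 43 libraries, 5 correlated best with a library of their own number. The range of r is wide, so the check cannot tell whether same-numbered mice shared more than a number. The p-values measure the spread between these mice. Depth limits Ifng most, with 0 to 38 counts per library, and interferons such as Ifnb1 were not measurable.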
